A study of Sus scrofa with 8 samples.

Results

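The genes described here are those of the cardiac sarcomere: the proteins of the thick filament, of the thin filament, and of the Z-disc, M-band and titin, with their closest non-muscle paralogs and 1 assembly factor. The members were 47 gene symbols listed by name and looked up in a table of 18975 Ensembl genes of Sscrofa10.2. Of these, 41 symbols had a row, and as MYL6 and MYPN had 2 rows each, 43 rows were described. The values were FPKM, fragments scaled for the length of the transcript and the size of the library. Between libraries, FPKM also depends on what else a library holds, and factors of a median-ratio scaling ran from 0.849 (YL2) to 1.18 (TH1). Of the 43 rows, 39 reached at least 1 FPKM in at least 2 libraries and were tested, among 11913 genes tested in all, and TNNC2 did so through the highland Tibetan libraries alone. The rows of LMOD3, MYBPC2, MYOZ1 and the second row of MYL6 did not reach that level. MYH7, MYH10, MYL2, MYLK3, TNNT3 and TNNI2 had no row under these symbols and were not analysed as members. A row named MLC-2V, an alias of MYL2, is given among the other observations at the end.

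A sarcomere is the contractile unit of striated muscle. Myosin of the thick filament, with its light chains and myosin-binding protein C, pulls on actin of the thin filament, and the troponin complex (TNNC, TNNI and TNNT) and tropomyosin (TPM) make this pull depend on calcium. Thin filaments are anchored at the Z-disc by alpha-actinin, thick filaments are crosslinked at the M-band by the myomesins, and titin runs between the Z-disc and the M-band. Most of these proteins come in cardiac, skeletal and non-muscle forms encoded by separate genes, and hearts are known to shift between such forms during development and under load.

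The libraries were from hearts of male pigs aged 6 months. Tibetan pigs kept in the highland at 3000 m (TH) or in the lowland at 100 m (TL), and Yorkshire pigs kept in the highland (YH) or in the lowland (YL), gave 2 libraries per group, 8 in all, and each library was a pool of RNA from 4 pigs. Replicate spread here is therefore a spread between pools, and no p-value measures the spread between animals. No part of the heart was named in the sources used here. Between 15687000 and 26722000 reads per library fell on genes. Mitochondrially encoded genes held between 57.7% (YH2) and 87.6% (TH1) of the summed FPKM. YL2 stood apart: genes of a kidney list (15 measured) summed to 9137 FPKM there and to between 0.743 and 17.3 FPKM in the other 7 libraries, so the main results that involve YL are given with and without YL2. Markers of cardiomyocytes outside the members were present in every library, and all 16 measured rows passed the filter. They summed to 45255 and 30369.6 FPKM for TH, 16149 and 22483 for TL, 15804 and 20919 for YH and 21885 and 9362 for YL. Most of this was ACTA1, CSRP3 and HSPB7, and the other 13 rows summed to 4024 and 3065 FPKM in TH, between 3502 and 4329 in TL and YH, 4716 in YL1 and 1971 in YL2.

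The first question was whether sarcomere genes differ between breeds at 1 altitude (TH to YH, TL to YL) and between altitudes within 1 breed (TH to TL, YH to YL). Summed over the 43 rows, the members were at 70376 and 43792 FPKM for TH, 47678 and 53879 for TL, 43794.5 and 47560.1 for YH and 57430 and 22633 for YL. The TH sums spanned those of TL and YH, the TL sums lay just above those of YH, and YL1 lay above all but TH1 while YL2 lay lowest. Of the summed FPKM without mitochondrially encoded genes, the members held 6.97 and 7.47% for TH and 7.15 and 7.86% for TL. For YH they held 7.48 and 5.88%, and for YL 5.39 and 5.595%. By this share YL1 lay lowest and YL2 next above it, so the order of the libraries by FPKM sum was not kept. Single members stood on opposite sides within the member sums. TNNT1, DES, TNNC2 and ACTN1 were higher in both TH libraries than in any other library, MYH6, SMYD1 and the 3 myomesin genes were low in TH, and ACTC1 was highest in TL.

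**Figure D1:**
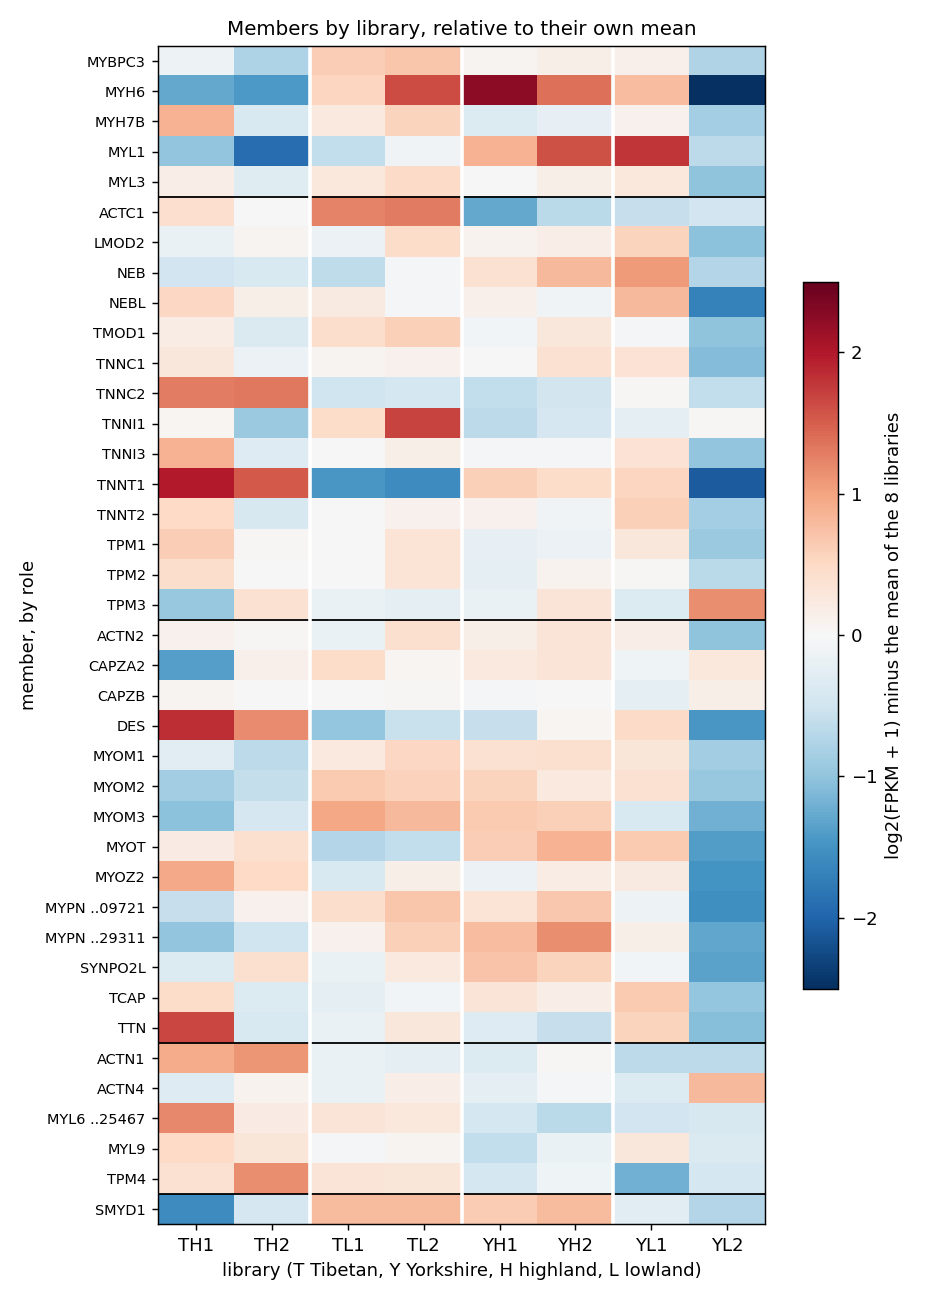
Colours show log2(FPKM + 1) of each of the 39 tested rows (vertical axis, ordered by role and separated by black lines) in each of the 8 libraries (horizontal axis) minus the mean of that row over the 8 libraries, with red above and blue below the mean. The column of YL2 is blue for most rows, and the 2 TH columns hold both the reddest cells of TNNT1 and DES and blue cells of MYH6, MYL1 and SMYD1.

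No member passed the test of any of the 4 comparisons. The test was limma on log2(FPKM + 1) over all 8 libraries, with thresholds of 0.01 for the adjusted p and of 1 for the size of the log2 fold change. With these it called 0.0336% of all genes tested in TH to YH, 0.00839% in TL to YL, 0.0504% in TH to TL and 0% in YH to YL, so few genes of any kind passed. Limma on the scaled reads in place of FPKM called 0 genes of any kind in all 4 comparisons, and so 0 members. At an unadjusted p under 0.05, 13 of the 39 members (33.3%) stood in TH to YH beside 16.2% of all genes, 8 (20.5%) in TL to YL beside 8.94%, 10 (25.6%) in TH to TL beside 11.3%, and 7 (17.9%) in YH to YL beside 5.97%. Without YL2 there were 9 (23.1%) in TL to YL beside 9.72% and 4 (10.3%) in YH to YL beside 5.45%. The counts of TH to YH, of TH to TL and of YH to YL without YL2 include TNNC2, which entered the test through TH alone and supports no difference. The direction of the members was mixed, with a median log2 fold change of -0.12 in TH to YH and -0.04 in TH to TL, beside -0.03 and -0.02 over all genes tested.

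By their medians, the members lay lower in YL than in the groups it was set against, as long as YL2 was used. The median log2 fold change was 0.50 in TL to YL and 0.43 in YH to YL, beside 0.02 and 0.03 over all genes. The libraries of 12 members (30.8%) lay higher in TL than in YL without overlap, beside 23.8% of all genes, and those of 0 members lay lower, beside 17.8%. In YH to YL, 9 members (23.1%) lay higher in YH, beside 21.9% of all genes, and 2 (5.13%) lower, beside 14.4%. Without YL2 the lean was gone: against YL1 alone, 16 members lay higher in TL (45.7% of all genes) and 15 lower (35.5%), 13 lay higher in YH (43.6%) and 17 lower (31.4%), and the medians were 0.11 and -0.06. YL2 held the lowest value of 26 of the 39 members, where it held the lowest value of 22.5% of all genes tested. Of the members, 31 were lower in YL2 than in YL1, beside 47.3% of all genes. The median log2 difference was -1.21 for the members and 0.04 for all genes. With YL1 left out instead, so that YL2 stood alone for YL, the medians were 1.10 and 1.11, beside 0.02 and 0.03 over all genes. Fewer cardiomyocytes and less of these RNAs per cardiomyocyte cannot be told apart in such bulk samples, and the part that the kidney genes of YL2 have in these values was not tested.

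**Figure D2:**
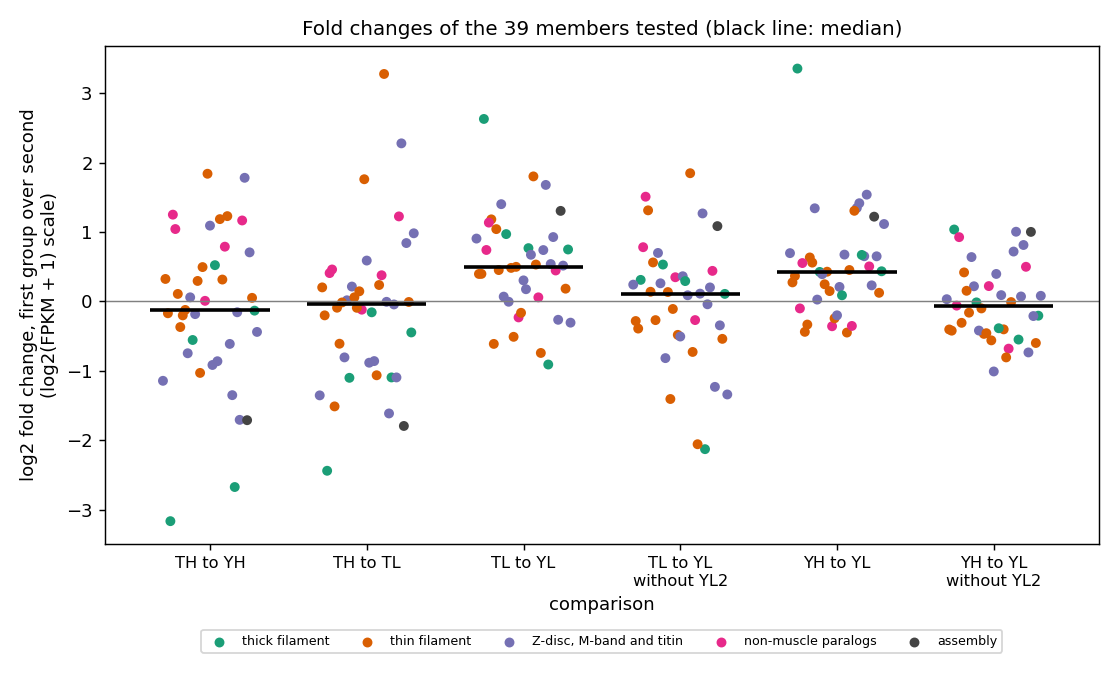
Each point is the log2 fold change, first group over second on the log2(FPKM + 1) scale (vertical axis), of 1 of the 39 tested rows in a comparison (horizontal axis), coloured by role, and the black line is their median. The medians of TL to YL and YH to YL lie at 0.50 and 0.43 with both YL libraries and at 0.11 and -0.06 without YL2.

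Of the thick filament genes, 6 had a row under their listed symbols and 5 were tested. MYL3, the essential light chain of slow muscle and ventricle, was the most abundant of them and was at 7440.0 and 5341 FPKM for TH, 7951 and 9276 for TL, 6557 and 7282 for YH and 7963 and 3282 for YL. YL2 lay lowest, and TH lay below TL without overlap. The log2 fold change was -0.45 ± 0.52 (SE, limma adjusted p = 0.799) in TH to TL and -0.13 ± 0.52 (SE, limma adjusted p = 0.918) in TH to YH, both smaller than their error. MYH6, the alpha heavy chain of cardiac myosin, was at 20.6 and 18.4 FPKM for TH, 75.1 and 161 for TL, 246 and 135 for YH and 88.4 and 2.60 for YL. Both TH libraries lay below all libraries of TL and YH, and YL2 lay lowest of all. The log2 fold change of MYH6 was -3.16 ± 1.32 (SE, limma adjusted p = 0.307) in TH to YH and -2.44 ± 1.32 (SE, limma adjusted p = 0.536) in TH to TL. In YH to YL it was 3.35 ± 1.32 (SE, limma adjusted p = 0.784), and without YL2 it was 1.04. The row of MYH6 covered only 7:81051891-81061132, and MYH7, the beta heavy chain with which it exchanges, was not analysed here, so that the balance of both chains was not measured.

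MYBPC3, the cardiac form of myosin-binding protein C, was at 649.5 and 419 FPKM for TH, 1095 and 1143 for TL, 742 and 792 for YH and 774 and 421 for YL. It was highest in both TL libraries and lowest in TH2 and YL2, and its log2 fold change in TH to TL was -1.10 ± 0.38 (SE, limma adjusted p = 0.353). The fast skeletal form MYBPC2 was listed at 0.036 to 1.07 FPKM. MYL1, the essential light chain of fast skeletal muscle, was low throughout, at 2.27 and 0.745 FPKM for TH, 3.25 and 5.11 for TL, 10.9 and 18.5 for YH and 21.3 and 3.11 for YL. Its YH libraries and YL1 lay above all Tibetan libraries, with a log2 fold change of -2.67 ± 0.76 (SE, limma adjusted p = 0.189) in TH to YH, where it rested on 12 to 356 reads per library. MYH7B, a slow myosin heavy chain, was at 147 and 62.2 FPKM for TH, 95.6 and 119.5 for TL, 63.3 and 69.7 for YH and 87.0 and 44.6 for YL, and the TH libraries spanned nearly the whole range.

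Among the 14 thin filament rows tested, the cardiac troponin subunits and TPM1 were the most abundant. TNNI3, the cardiac inhibitory troponin subunit, had the highest mean of the member rows and was at 16846 and 7360.4 FPKM for TH, 9287 and 10085 for TL, 8937 and 8855 for YH and 11765 and 4597 for YL. TNNC1, the calcium-binding subunit of heart and slow muscle, was at 8299 and 6140.0 FPKM for TH, 7153 and 7270.2 for TL, 6867 and 8789 for YH and 8688 and 3199 for YL. TNNT2, the cardiac tropomyosin-binding subunit, was at 7134 and 3833 FPKM for TH, 5064 and 5458 for TL, 5393 and 4718 for YH and 7636 and 2804 for YL. For each of these 3 the libraries of TH overlapped with those of TL and YH, and YL2 was the lowest library. TPM1, the main striated tropomyosin, was at 4582 and 3086 FPKM for TH, 3012 and 3834 for TL, 2612 and 2725 for YH and 3663 and 1579 for YL, so that TH lay above YH with a log2 fold change of 0.49 ± 0.49 (SE, limma adjusted p = 0.637). TPM2 was at 307 to 665 FPKM with its lowest value in YL2.

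The troponin subunits of skeletal muscle behaved otherwise. TNNT1, the tropomyosin-binding subunit of slow skeletal muscle, was at 339 and 249 FPKM for TH, 30.3 and 27.9 for TL, 129 and 117 for YH and 124 and 19.2 for YL. Both TH libraries lay above all others, both TL libraries lay below all others but YL2, and YH and YL1 lay between. Its log2 fold change was 3.27 ± 0.75 (SE, limma adjusted p = 0.221) in TH to TL, the largest of any member there, and 1.23 ± 0.75 (SE, limma adjusted p = 0.455) in TH to YH. The value of TH to TL stayed at 3.27 with YL2 or YL1 left out of the fit, as YL does not enter that difference.

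TNNC2, the calcium-binding subunit of fast skeletal muscle, was at 3.24 and 3.41 FPKM for TH, 0.252 and 0.305 for TL, 0.147 and 0.277 for YH and 0.785 and 0.149 for YL. TH lay above all other libraries, but on 50 and 55 reads, against 3 to 12 reads elsewhere. As it passed the filter only through TH, its log2 fold changes of 1.84 in TH to YH and 1.76 in TH to TL are a description without a test, and the scale with a pseudocount of 1 understates ratios at such levels. TNNI1, the inhibitory subunit of slow skeletal and fetal cardiac muscle, was at 1.61 and 0.326 FPKM for TH, 2.47 and 7.09 for TL, 0.586 and 0.876 for YH and 1.13 and 1.56 for YL, on 6 to 180 reads, and its TL libraries were the highest. Of the slow skeletal forms, TNNT1 was thus highest in TH and TNNI1 in TL. Of genes that define skeletal muscle fibres, several were near 0 in every library, with MYH1 at up to 0.0373 FPKM, MYH2 at up to 0.00467 and MYBPC1 at up to 0.0169. CASQ1, the skeletal calsequestrin, was at 7.32 and 5.77 FPKM for TH, 5.51 and 36.1 for TL, 14.0 and 5.68 for YH and 17.4 and 3.82 for YL, with its highest value in TL2. Of the skeletal muscle list, 13 genes had a row and 4 passed the filter. These were CASQ1, PYGM at 52.0 to 186 FPKM, and CKM and ENO3, which heart also expresses. The sum of the list was lower in TH than in TL and YH, between 1479.6 and 2099 FPKM against 3109 to 4396.

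ACTC1, the cardiac alpha-actin of the thin filament, was at 2717 and 2039 FPKM for TH, 4818 and 5018 for TL, 838 and 1276 for YH and 1367 and 1457 for YL. The groups followed the order TL, TH, YL, YH without overlap between any of them. The log2 fold change was 1.80 ± 0.35 (SE, limma adjusted p = 0.224) in TL to YL and 1.19 ± 0.35 (SE, limma adjusted p = 0.201) in TH to YH, so that ACTC1 was higher in Tibetan than in Yorkshire libraries at both altitudes. Between altitudes it was -1.06 ± 0.35 (SE, limma adjusted p = 0.3325) in TH to TL and -0.45 ± 0.35 (SE, limma adjusted p = 0.795) in YH to YL (-0.40 without YL2), and no value of ACTC1 passed the test. YL1 and YL2 were close to each other for this gene, and without YL2 the value of TL to YL was 1.85. Actin genes share long stretches of sequence, and how reads that fit several of them were assigned is not given in the sources used here.

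Further rows were of genes that set the length and ends of the thin filament. TMOD1, which caps the slow-growing end, was at 48.1 and 32.7 FPKM for TH, 57.4 and 64.7 for TL, 40.4 and 51.7 for YH and 41.0 and 20.6 for YL, highest in TL, with a log2 fold change of 1.04 ± 0.37 (SE, limma adjusted p = 0.461) in TL to YL that was 0.56 without YL2. LMOD2, a cardiac leiomodin that elongates thin filaments, was at 113 to 338 FPKM, and LMOD3 of skeletal muscle was listed at 0.121 to 0.695 FPKM. NEBL, nebulette, a short relative of nebulin of the cardiac Z-disc, was at 122 and 93.6 FPKM for TH, 99.2 and 82.7 for TL, 92.4 and 79.6 for YH and 151 and 25.5 for YL. NEB, the giant nebulin of skeletal muscle, was at 1.67 and 1.88 FPKM for TH, 1.39 and 2.64 for TL, 3.89 and 5.53 for YH and 6.81 and 1.26 for YL, with all YH libraries and YL1 above all Tibetan ones. Its log2 fold change in TH to YH was -1.03 ± 0.55 (SE, limma adjusted p = 0.404). TPM3, a tropomyosin of slow muscle and of non-muscle cells, was at 10.4 and 27.7 FPKM for TH, 18.9 and 17.7 for TL, 18.8 and 26.7 for YH and 16.5 and 48.6 for YL, with its highest value in YL2.

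**Figure D3:**
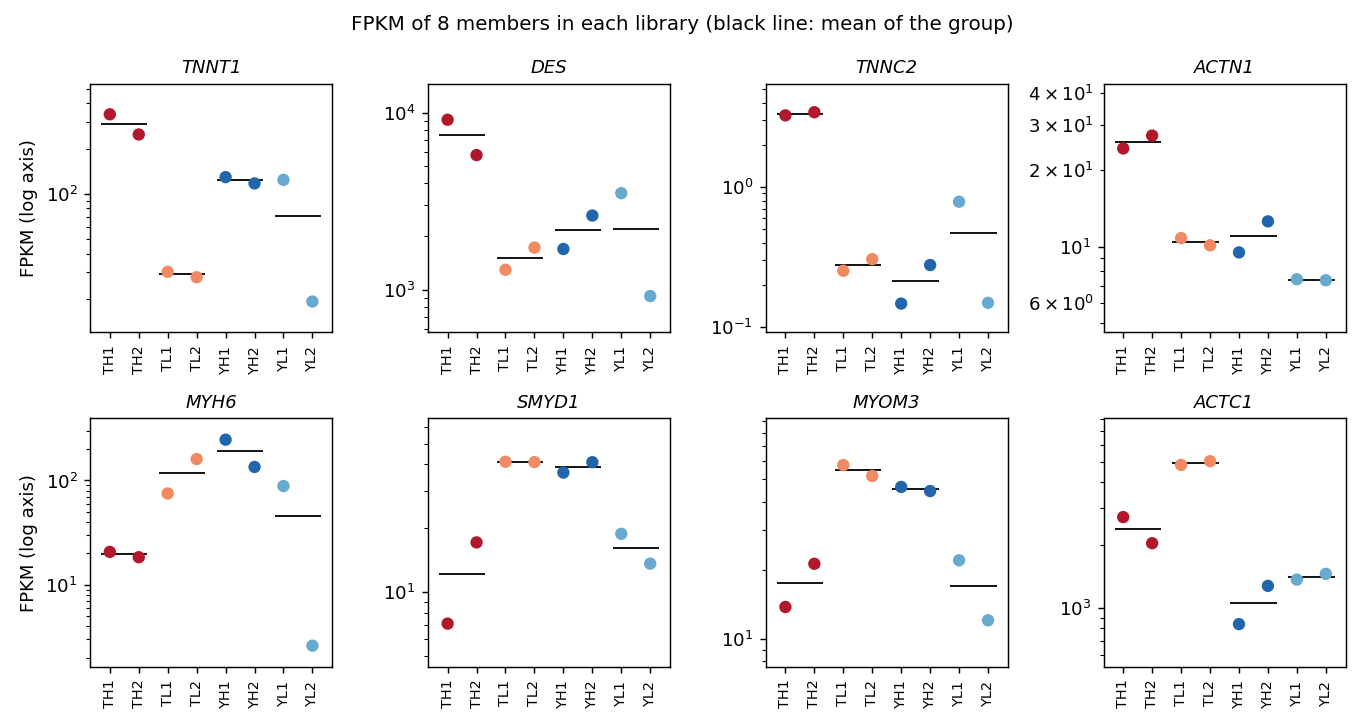
FPKM on a log axis (vertical) of 8 members in each of the 8 libraries (horizontal), with points coloured by group and a black line at the mean of each group. TNNT1, DES, TNNC2 and ACTN1 are highest in the 2 TH libraries, MYH6, SMYD1 and MYOM3 are lower in TH than in TL and YH, and ACTC1 is highest in TL.

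Of the genes of the Z-disc, M-band and titin, 14 rows were tested. DES, desmin, the intermediate filament protein that ties Z-discs of neighbouring myofibrils together, was at 9125 and 5761 FPKM for TH, 1295 and 1728 for TL, 1697 and 2624 for YH and 3509.9 and 919.6 for YL. TH lay above every other library, and TL lay at the lower end with YH1 and YL2. The log2 fold change of DES was 2.28 ± 0.66 (SE, limma adjusted p = 0.301) in TH to TL and 1.78 ± 0.66 (SE, limma adjusted p = 0.268) in TH to YH. MYOZ2, calsarcin 1 of the cardiac Z-disc, was at 5628 and 4130.0 FPKM for TH, 2251 and 3218 for TL, 2648 and 3295 for YH and 3417 and 1036 for YL. TH was again highest, with a log2 fold change of 0.84 ± 0.60 (SE, limma adjusted p = 0.643) in TH to TL, and the row covered only 8:112388714-112390175.

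The myomesins, which crosslink myosin at the M-band, lay lower in TH than in TL and YH. MYOM1 was at 123 and 95.3 FPKM for TH, 179 and 218 for TL, 196 and 199 for YH and 186 and 82.1 for YL. MYOM2, M-protein, was at 136 and 166 FPKM for TH, 396 and 375 for TL, 371 and 299 for YH and 326 and 129 for YL. MYOM3 was at 13.8 and 21.4 FPKM for TH, 57.8 and 51.8 for TL, 46.4 and 44.5 for YH and 22.2 and 12.1 for YL. For all 3 the TH libraries lay below all libraries of TL and YH, and YL2 was lower still. The log2 fold change in TH to TL was -0.86 ± 0.40 (SE, limma adjusted p = 0.472) for MYOM1, -1.35 ± 0.43 (SE, limma adjusted p = 0.322) for MYOM2 and -1.61 ± 0.33 (SE, limma adjusted p = 0.199) for MYOM3. In TH to YH it was -1.14 ± 0.43 (SE, limma adjusted p = 0.276) for MYOM2 and -1.35 ± 0.33 (SE, limma adjusted p = 0.156) for MYOM3. For MYOM3 both YL libraries were low, so that its value of TL to YL was 1.68 ± 0.33 (SE, limma adjusted p = 0.226) with both and 1.27 without YL2. Its value of YH to YL was 1.41 ± 0.33 (SE, limma adjusted p = 0.645) with both and 1.004 without YL2. The MYOM3 row lay on the unplaced scaffold GL895220.1 and held 214 to 1100 reads per library.

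MYPN, myopalladin, which links alpha-actinin to other Z-disc and I-band proteins, had 2 rows on chromosome 14, at 14:77320444-77396950 and 14:22431844-22433380. The first was at 8.66 and 12.7 FPKM for TH, 19.8 and 28.0 for TL, 31.7 and 42.0 for YH and 20.3 and 6.81 for YL. The second and shorter one was at 4.84 and 8.44 FPKM for TH, 10.9 and 13.1 for TL, 10.03 and 13.0 for YH and 6.99 and 2.02 for YL. Both were lower in TH than in TL and YH and lowest in YL2, and the first had a log2 fold change of -1.70 ± 0.48 (SE, limma adjusted p = 0.188) in TH to YH. In YH to YL it was 1.54 ± 0.48 (SE, limma adjusted p = 0.763), and 0.81 without YL2. SYNPO2L, an actin-bundling Z-disc protein of heart and skeletal muscle, was at 59.7 and 101 FPKM for TH, 67.2 and 90.3 for TL, 125 and 113 for YH and 71.95 and 29.6 for YL, with its value of YH to YL at 1.35 ± 0.45 (SE, limma adjusted p = 0.764) and at 0.72 without YL2. MYOT, myotilin, was at 169 and 192 FPKM for TH, 86.7 and 94.9 for TL, 224 and 266 for YH and 231 and 54.3 for YL, so that TL lay below TH and YH and only YL2 lay lower, with a log2 fold change of 0.98 ± 0.60 (SE, limma adjusted p = 0.586) in TH to TL.

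ACTN2, the alpha-actinin of cardiac Z-discs, was at 737 and 699 FPKM for TH, 610.2 and 896 for TL, 754 and 848 for YH and 761 and 340.2 for YL. TH lay below YH by a small margin, with a log2 fold change of -0.16 ± 0.43 (SE, limma adjusted p = 0.881), a difference smaller than its error, and the libraries of TH and TL overlapped. TCAP, telethonin, which caps titin at the Z-disc, was at 4511 and 2592 FPKM for TH, 2766 and 3139 for TL, 4109 and 3664 for YH and 5188 and 1683 for YL, and TH overlapped with TL and YH. CAPZB, a subunit of the protein that caps actin filaments at the Z-disc and in other cells, was the steadiest member, at 51.3 to 67.2 FPKM. CAPZA2, its partner subunit, was at 2.56 and 9.05 FPKM for TH, 11.6 and 8.61 for TL, 9.98 and 10.6 for YH and 7.57 and 10.1 for YL and lowest in TH1. The row of TTN, titin itself, covered 81971 to 112317 on the scaffold GL893554.2, only a part of the gene, and was at 56.4 and 12.9 FPKM for TH, 15.0 and 21.0 for TL, 13.5 and 11.1 for YH and 25.7 and 7.69 for YL. TH1 lay above TH2 by 2.04 on the log2 scale, the widest gap of any tested member between the TH libraries.

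Of the 5 tested rows of non-muscle paralogs, 4 lay higher in TH than in YH without overlap, as did 25.2% of all genes tested. ACTN1, a non-muscle alpha-actinin, was at 24.3 and 27.3 FPKM for TH, 10.8 and 10.1 for TL, 9.49 and 12.6 for YH and 7.44 and 7.38 for YL. TH lay above all other libraries by a margin much wider than the gap within each pair, with a log2 fold change of 1.22 ± 0.21 (SE, limma adjusted p = 0.16) in TH to TL and 1.17 ± 0.21 (SE, limma adjusted p = 0.0924) in TH to YH. TPM4, a tropomyosin of the cytoskeleton, was at 49.4 and 86.1 FPKM for TH, 47.4 and 46.9 for TL, 27.6 and 35.2 for YH and 15.9 and 27.4 for YL. Its log2 fold change was 1.04 ± 0.36 (SE, limma adjusted p = 0.244) in TH to YH, and in TL to YL it was 1.14 ± 0.36 (SE, limma adjusted p = 0.408), or 1.51 without YL2. MYL6, the essential light chain of smooth muscle and non-muscle myosin, was at 56.2 and 27.6 FPKM for TH, 30.2 and 28.8 for TL, 17.5 and 14.7 for YH and 16.7 and 17.8 for YL, with a log2 fold change of 1.25 ± 0.33 (SE, limma adjusted p = 0.176) in TH to YH. A second MYL6 row close by on chromosome 5 was listed at 0.152 to 0.691 FPKM, and reads of both copies may have been split between them.

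MYL9, the regulatory light chain of smooth muscle and non-muscle myosin, was at 327 and 283 FPKM for TH, 226 and 243 for TL, 151 and 205 for YH and 282 and 179 for YL, above YH in both TH libraries. ACTN4, the other non-muscle alpha-actinin, was at 36.0 and 48.4 FPKM for TH, 40.3 and 51.1 for TL, 38.8 and 44.4 for YH and 35.5 and 80.3 for YL, with overlapping TH and YH libraries and its highest value in YL2. Of a list of smooth muscle genes, 11 of 11 measured passed the filter and none was at 0. Without PLN, which cardiomyocytes express at a high level, 4 of the other 10 lay higher in TH than in YH and 3 lower (25.2% and 27.3% of all genes), and 3 lay higher in TH than in TL and 5 lower (24% and 24.5%). In TL to YL 7 lay higher in TL and 0 lower (23.8% and 17.8%), and in YH to YL 5 lay higher in YH and 0 lower (21.9% and 14.4%). Against YL1 alone these were 8 and 1 (45.7% and 35.5%), and 6 and 1 (43.6% and 31.4%). TAGLN, a smooth muscle actin-binding protein, was at 146 and 131 FPKM for TH, 98.4 and 75.9 for TL, 60.8 and 77.0 for YH and 40.4 and 42.3 for YL, higher in TH than in all others. MYH11, which defines smooth muscle, was at 0.388 and 2.69 FPKM for TH, 4.87 and 3.62 for TL, 2.85 and 3.54 for YH and 1.88 and 1.89 for YL, lower in TH than in TL and YH. Red cell genes were also higher in TH than in YH, with HBB at 1708 and 876 FPKM for TH, 649 and 642 for TL, 599 and 534 for YH and 374 and 289.8 for YL, and the part of other cell types in these values was not tested.

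SMYD1, a muscle methyltransferase needed for assembly of myosin into sarcomeres, was the only assembly factor listed. It was at 7.10 and 17.1 FPKM for TH, 41.1 and 40.9 for TL, 36.5 and 40.9 for YH and 18.8 and 13.6 for YL. TL and YH lay between 36.5 and 41.1 FPKM, and TH and YL lay below them without overlap, between 7.10 and 18.8 FPKM. The log2 fold change was -1.71 ± 0.38 (SE, limma adjusted p = 0.134) in TH to YH, -1.79 ± 0.38 (SE, limma adjusted p = 0.209) in TH to TL, 1.30 ± 0.38 (SE, limma adjusted p = 0.364) in TL to YL and 1.22 ± 0.38 (SE, limma adjusted p = 0.763) in YH to YL. Without YL2 the last 2 were 1.08 and 1.001. Highland libraries were thus lower than lowland ones in Tibetan pigs and higher in Yorkshire pigs.

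The interaction subtracted the YH to YL value from the TH to TL value and asked whether the difference between altitudes was alike in both breeds. No member passed it, beside 0.0336% of all genes tested, and 11 of the 39 members (28.2%) were at an unadjusted p under 0.05, beside 10.9%, and 13 (33.3%) without YL2, beside 12.8%. TNNC2 is in both counts. The interaction was -5.79 ± 1.87 (SE, limma adjusted p = 0.371) for MYH6, -3.03 ± 0.47 (SE, limma adjusted p = 0.198) for MYOM3 and -3.01 ± 0.54 (SE, limma adjusted p = 0.242) for SMYD1. Without YL2 these became -3.47, -2.62 and -2.79, with adjusted p-values of 0.206, 0.13 and 0.22. Against YL2 alone, with YL1 left out, the interaction was -8.11 for MYH6, -3.44 for MYOM3 and -3.23 for SMYD1.

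Counted by role, the TH libraries stood apart from both TL and YH without overlap for 16 of the 39 rows. Of these, 7 (17.9%) were higher in TH, beside 15.7% of all genes, and 9 (23.1%) were lower, beside 15.9%. The higher ones were ACTN1, DES, MYL9, MYOZ2, TNNC2, TNNT1 and TPM4, or 6 without TNNC2, whose place the filter fixed. The lower ones were MYBPC3, MYH6, MYL1, MYOM1, MYOM2, MYOM3, both rows of MYPN, and SMYD1. In TH to YH, 11 rows (28.2%) were higher in TH, beside 25.2% of all genes, and 15 (38.5%) were lower, beside 27.3%. In TH to YH the higher ones held 5 of 14 thin filament rows, TNNC2 among them, and 4 of 5 rows of non-muscle paralogs, and the lower ones held 3 of 5 thick filament rows and 9 of 14 rows of Z-disc, M-band and titin. In TH to TL, 8 (20.5%) were higher in TH, beside 24% of all genes, and 13 (33.3%) were lower, beside 24.5%, with 4 of 5 thick filament rows among the lower ones. These comparisons share the TH libraries, so that the counts are not independent of each other. In 8 of the 39 rows TH1, TH2 and YL2 held the 3 lowest values, beside 5.64% of all genes tested, a pattern that was chosen after the values were seen.

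The counts of TH depended on its 2 libraries. Without TH1, 13 rows were higher in TH than in YH (37.1% of all genes) and 23 were lower (39.3%), and without TH2, 20 were higher and 17 lower, beside 42.6% and 45.1% of all genes. TH1 also carried the highest share of mitochondrially encoded genes. Some genes of an atrial list were, like TNNT1 and DES, highest in TH. NPPA, atrial natriuretic peptide, was at 2263 and 2146 FPKM for TH, 53.1 and 108 for TL, 23.1 and 93.1 for YH and 23.3 and 46.3 for YL. MYL7, the atrial regulatory light chain, was at 4283 and 3207 FPKM for TH, 1415 and 2396 for TL, 576 and 932 for YH and 2578 and 337 for YL. SLN, sarcolipin, was at 56.5 and 16.3 FPKM for TH, 0.812 and 1.69 for TL, 2.11 and 2.33 for YH and 2.74 and 3.52 for YL. Of the 8 rows of the list that passed the filter, 6 lay higher in TH than in YH and 1 lower (25.2% and 27.3% of all genes), and 3 lay higher in TH than in TL and 3 lower (24% and 24.5%). MYL4, the atrial essential light chain, was at 7.59 and 6.73 FPKM for TH, 8.85 and 21.4 for TL, 3.48 and 3.54 for YH and 4.60 and 2.09 for YL. TBX5, a transcription factor of atria and left ventricle, was at 9.14 and 8.39 FPKM for TH, 15.3 and 17.1 for TL, 15.5 and 12.3 for YH and 10.6 and 5.31 for YL. Of this list 12 rows were measured, and its sum ran from 5403 to 6643 FPKM in TH and from 424 to 2641 in the others. Most of this sum was MYL7 and NPPA in every library, so that it says little of the other rows. NPPA is also a gene of a strained ventricle. NPPB, a gene of ventricular wall stress, was at 4963 and 3264 FPKM for TH, 7.75 and 51.7 for TL, 16.1 and 180.0 for YH and 278 and 64.3 for YL. Of the 8 rows of a ventricular list, all of which passed the filter, 6 lay lower in TH than in YH and 0 higher (27.3% and 25.2% of all genes), and 5 lay lower in TH than in TL and 1 higher (24.5% and 24%). Its sum was 1265 and 1194 FPKM in TH, between 1765 and 2654 in TL and YH, 2208 in YL1 and 944 in YL2, most of it PLN. Without PLN the sum was 144 and 188 FPKM in TH, between 256 and 460 in TL and YH, 248 in YL1 and 122 in YL2. The 1 higher row was IRX4, a ventricular transcription factor, at 21.1 and 12.03 FPKM for TH, 9.37 and 9.02 for TL, 11.4 and 12.03 for YH and 11.9 and 6.29 for YL. The part of the sampled region of the heart or of such stress in the members' values was not tested.

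To set paralogs against each other within a library, forms were given as shares of the summed FPKM of their family, which do not change with the scaling of a library. With 2 libraries against 2, the exact permutation test cannot go below a two-sided p of 0.3333, so the shares are given by library, for 7 families and 4 comparisons. Of TNNT1 and TNNT2 together, TNNT1 made up 4.53 and 6.09% for TH, 0.595 and 0.508 for TL, 2.34 and 2.43 for YH and 1.598 and 0.681 for YL. The 4 groups did not overlap, in the order TH, YH, YL and TL. Of TNNC1 and TNNC2, TNNC2 made up 0.0391 and 0.0556% for TH, 0.00353 and 0.0042 for TL, 0.00214 and 0.00315 for YH and 0.00903 and 0.00466 for YL, a trace in all groups. Of ACTN1, ACTN2 and ACTN4, ACTN1 made up 3.05 and 3.52% for TH, 1.63 and 1.06 for TL, 1.18 and 1.39 for YH and 0.926 and 1.72 for YL, highest in TH.

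The nebulin share lay higher in the Yorkshire libraries and overlapped between altitudes. Of NEB and NEBL, NEB made up 1.35 and 1.97% for TH, 1.38 and 3.10 for TL, 4.04 and 6.50 for YH and 4.33 and 4.70 for YL, and all Yorkshire libraries lay above all Tibetan ones. Of MYL1 and MYL3, MYL1 made up 0.0305 and 0.0139% for TH, 0.0409 and 0.0551 for TL, 0.165 and 0.254 for YH and 0.266 and 0.0947 for YL, with all Yorkshire libraries above all Tibetan ones, YL2 included. For both the exact permutation p of TH to YH and of TL to YL was 0.3333, the smallest that 2 against 2 can give. Of the 4 tropomyosin genes, TPM1 made up 86.3 and 83.7% for TH, 84.6 and 84.9 for TL, 84.9 and 82.5 for YH and 87.4 and 80.5 for YL, and the groups overlapped. TNNI1 was at most 0.0702% of TNNI1 and TNNI3 in every library, and ACTN2 made up 79.5% of the alpha-actinins in YL2 against 90.2% to 94.7% elsewhere.

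**Figure D4:**
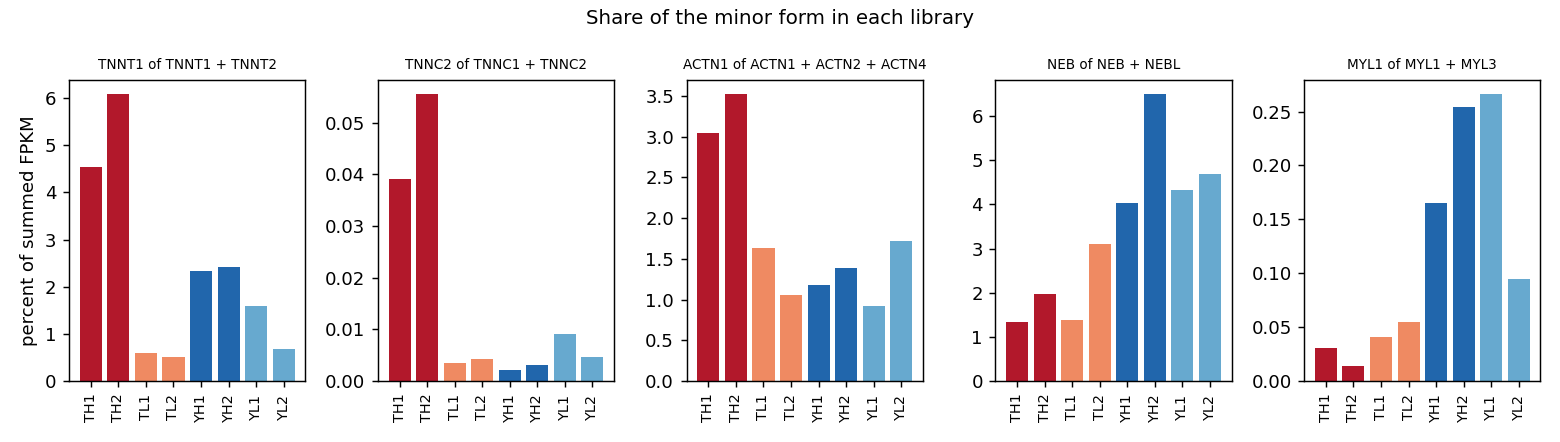
Bars give the share in percent of summed FPKM (vertical axes, each from 0) that TNNT1, TNNC2, ACTN1, NEB and MYL1 hold of the genes named above each panel, in each of the 8 libraries (horizontal axes), coloured by group. TNNT1, TNNC2 and ACTN1 shares are highest in the 2 TH libraries, and NEB and MYL1 shares are higher in all Yorkshire than in all Tibetan libraries.

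Some members are neighbours in the genome. TNNI3 (6:54294925-54298579) and TNNT1 (6:54301795-54314510) lay 3215 bases apart, yet the libraries of TH and TL overlapped for TNNI3 and did not overlap for TNNT1. TNNT2 (10:28159207-28169382) and TNNI1 (10:28197735-28203433) were 28352 bases apart, and MYOZ1 and SYNPO2L on chromosome 14 were 4740 bases apart, with MYOZ1 at no more than 1.10 FPKM and SYNPO2L at 29.6 to 125 FPKM.

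Other genes of the sarcomere and Z-disc that are not members were taken from a list of 61 symbols, of which 45 had a row and 38 passed the filter. None of the 38 passed the test of any comparison with limma. At an unadjusted p under 0.05 there were 6 in TH to YH (16.2% of all genes), 6 in TL to YL (8.94%), 8 in TH to TL (11.3%) and 5 in YH to YL (5.97%). Their median log2 fold changes were -0.11, 0.48, -0.14 and 0.57. Without YL2, 5 stood in TL to YL and 5 in YH to YL, and the medians were -0.17 and 0.10. In TH to TL, 14 of them were higher in TH without overlap, beside 24% of all genes, and 15 were lower, beside 24.5%. In TH to YH 10 were higher in TH and 15 lower (25.2% and 27.3% of all genes). In TL to YL 13 were higher in TL and 0 lower (23.8% and 17.8%), and in YH to YL 18 were higher in YH and 0 lower (21.9% and 14.4%). Against YL1 alone these were 15 and 18 (45.7% and 35.5%), and 20 and 7 (43.6% and 31.4%). CSRP3, a Z-disc LIM protein of stretch sensing, was at 7832 and 3786 FPKM for TH, 954 and 1274 for TL, 1493 and 3689 for YH and 2074 and 806 for YL, with a log2 fold change of 2.30 ± 0.66 (SE, limma adjusted p = 0.295) in TH to TL. PDLIM3, a LIM protein bound to alpha-actinin, was at 236 and 351 FPKM for TH, 38.7 and 97.1 for TL, 76.6 and 209.6 for YH and 30.7 and 21.9 for YL, with 2.21 ± 0.59 (SE, limma adjusted p = 0.268). CRYAB, the small heat shock protein that binds desmin and titin, was at 6494 and 4239 FPKM for TH, 1041 and 1250.1 for TL, 1692 and 3199.6 for YH and 2636 and 717 for YL, with 2.20 ± 0.66 (SE, limma adjusted p = 0.309). All 3 were highest in TH, as was DES.

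On the lower side in TH were FHL2 and LDB3. FHL2, a LIM protein bound to titin, was at 29.0 and 42.1 FPKM for TH, 155 and 125 for TL, 60.4 and 59.9 for YH and 60.8 and 35.4 for YL, with a log2 fold change of -1.96 ± 0.32 (SE, limma adjusted p = 0.145) in TH to TL. LDB3, a PDZ and LIM protein bound to alpha-actinin, was at 156 and 150.2 FPKM for TH, 275 and 317 for TL, 335 and 359 for YH and 325 and 127 for YL, with -1.17 ± 0.43 (SE, limma adjusted p = 0.261) in TH to YH. CMYA5, myospryn, bound to desmin and alpha-actinin, was at 2.29 and 3.11 FPKM for TH, 9.32 and 8.80 for TL, 6.52 and 7.13 for YH and 6.32 and 3.29 for YL, with -1.45 ± 0.29 (SE, limma adjusted p = 0.197) in TH to TL. As among the members, Z-disc genes were found on both sides.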

How the data were processed

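RNA of pig heart was sequenced by the authors in 8 libraries, 2 per group, each pooled from 4 pigs. As their methods state, the authors used TopHat 2.0.9 for alignment to Sscrofa10.2 (Ensembl 72) and computed FPKM with Cufflinks. The processing notes of the submitters also name Bowtie 0.12.5 and DESeq 1.10.1. Beside FPKM, the deposited table holds a signal per gene and library, named a count by the authors but not whole, which is a read number scaled by 1 factor per library. Dividing it by the smallest step of its library made 99.8% of the low values whole within 0.1, and reads given here were obtained so. A few values lay below the step, so the reads obtained in this way were used for depth only and no count model was fitted. The scaled values themselves entered 2 alternatives, a limma fit and the paralog shares. Another 8 columns of group means and ratios, the authors' own comparisons, and separate tables per group with the same values were not used.

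Groups were taken from the titles. For YL1 and YL2 the label on the file of origin names another group, so title and breed decided. The members and lists were chosen with earlier results of these data known. Differences were tested with limma 3.58.1 (R 4.3.3), with 1 term per group, on log2(FPKM + 1) of all 8 libraries, with a trend of the variance on the mean, for the 11913 genes that reached 1 FPKM in 2 libraries or more. The fit was also run on simulated data, with an outcome that is not reported here. Benjamini-Hochberg adjustment ran over all genes tested of a comparison, and fold changes understate those of low genes. Values with SE, fold and p are given for members called, of which there were 0, and for the 5 largest rises and 5 largest falls per comparison among members with a mean of at least 10 FPKM and no overlap of libraries. Values of other members were added as each was described. Shares of paralog families were compared with exact permutation tests (scipy 1.17.1). The planned shares of MYH6 with MYH7 and of MYL2 with MYL1 and MYL3 were not formed, as MYH7 and MYL2 had no row under these symbols. Symbols and Sscrofa10.2 coordinates are those of the table. No reference sequence was used. Alternatives were other pseudocounts, filters, scalings, thresholds and variance models, and each library left out. Figures were drawn with matplotlib 3.10.9.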

Additional observations from a re-analysis of the deposited data

How the results depend on the processing

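The median log2 fold change of the members kept its sign under all settings other than left-out libraries in TL to YL (0.41 to 0.54), YH to YL (0.37 to 0.46) and the interaction, and in TH to TL. In TH to YH it turned from -0.12 to 0.01 with a mean of at least 10 FPKM. Median-ratio scaling moved the median of all genes to -0.13 in TH to YH and to -0.10 in TH to TL, and turned the sign of members near 0, such as ACTN4, TNNT2 and CAPZB in TH to YH. None of the 31 named fold changes turned its sign, which a left-out library could not do by construction, as these were chosen for libraries without overlap. At the thresholds of the report, no member was called in a fit of all 8 libraries, nor at an adjusted p of 0.05. In a fit of only the 4 libraries compared, the latter called 1 member (TNNT1, TH to TL), beside 24 of the 11913 genes tested. An unadjusted p under 0.01 with the fold threshold gave 6 members in TH to YH (15.4%, beside 4.06% of all genes), 2 in TL to YL (5.13%, 2.03%), 5 in TH to TL (12.8%, 2.57%), 1 in YH to YL (2.56%, 0.839%) and 4 in the interaction (10.3%, 2.85%), of which 5 in TH to YH, 4 in TH to TL and 3 in the interaction were left without TNNC2, which the filter let in through TH. With each library left out in turn, the lone library left is assumed to vary like the other groups. The median ran from -0.19 to 0.10 in TH to YH, from -0.22 (without TL1) to 0.05 (without TL2) in TH to TL, from 0.11 to 1.10 in TL to YL, from -0.060 to 1.11 in YH to YL and from -0.94 to -0.11 in the interaction, with the highest values of both YL comparisons without YL1 and the lowest without YL2. Members without overlap ran from 12 to 20 (higher in TH) and 15 to 23 (lower) in TH to YH, from 13 to 35 and 0 to 15 in TL to YL, from 9 to 19 and 14 to 21 in TH to TL, and from 11 to 30 and 3 to 17 in YH to YL. A group of 1 library overlaps less by construction: over all genes these shares ran from 31.7 to 42.6% and 33.3 to 45.1%, from 31.1 to 45.7% and 25 to 42.8%, from 30.6 to 42.5% and 32.3 to 45.6%, and from 27.9 to 43.9% and 21.4 to 39.8%. From scaled reads per implied length, the differences in the shares of ACTN2, MYL3, NEBL, TNNC2, TNNI1, TNNT2 and TPM1 kept their direction, and that of ACTN1, near 0 in TL to YL, turned there. With 1 library left out, some differences between overlapping groups turned their sign, in ACTN1, ACTN2, NEBL, MYL3, TNNI1 and TPM1, while groups without overlap cannot turn by construction. Without YL2, the difference in the ACTN2 share went from 5.85 to -1.73 percentage points in TL to YL and from 6.75 to -0.82 in YH to YL. Replicate numbers did not pair the libraries, as deviations of the same number correlated at -0.08 to 0.12 across genes. A fit with the replicate block called 0 members in each comparison, as without it, and at most 4 genes of any kind. Limma on the scaled reads (0 members and 0 genes of any kind called in each comparison), the counts without overlap under other settings, those at an unadjusted p without YL2, the counts without TNNC2 and the marker lists without single genes were added after the data had been seen. The planned tests with edgeR and DESeq2 were not run, as whole reads were not recovered. Depth limits TNNC2, TNNI1 and MYL1, which rested on few reads.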

Other observations

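Genes outside the list, named after their values were seen, complete the families of actin and of the regulatory light chains. ACTA1, the skeletal alpha-actin, which hearts also express, was at 30005 and 21387 FPKM for TH, 9944 and 15576 for TL, 8212 and 11213 for YH and 13045 and 5833 for YL, highest in TH. Of ACTC1 and ACTA1, ACTC1 made up 8.30 and 8.70% for TH, 32.6 and 24.4 for TL, 9.26 and 10.22 for YH and 9.49 and 19.98 for YL, so that both TL libraries held the largest share of cardiac actin, and the exact permutation p of TH to TL was 0.3333, the smallest that 2 against 2 libraries can give. A row named MLC-2V, an alias of the ventricular regulatory light chain MYL2, was at 13449 and 8321 FPKM for TH, 10186 and 12024 for TL, 11488 and 11663 for YH and 14035 and 4886 for YL. Of MYL7, its atrial counterpart, and MLC-2V, MYL7 made up 24.2 and 27.8% for TH, 12.2 and 16.6 for TL, 4.77 and 7.40 for YH and 15.5 and 6.45 for YL. All TH libraries lay above all others, and YL1 lay with TL.

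The 4 rows that did not reach 1 FPKM in 2 libraries were low throughout. MYBPC2 rested on 3 to 114 reads per library, LMOD3 on 8 to 34, MYOZ1 on 11 to 40 and the second MYL6 row on 2 to 12, and they were not tested.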
